A study of Xenopus tropicalis with 24 samples.

Results

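Solute carriers form a large family of membrane transport proteins, and the genes whose symbols start with slc were followed here through the blastula and early gastrula of the frog Xenopus tropicalis. The members are the 83 gene labels of the RNA table that start with slc and name no further gene, out of 5462 labels that name 1 gene. They hold 428 of the table's 46039 tag regions. Another 56 labels name an slc gene together with other genes and were left out. Of the 83, slc7a6os and slc9a3r1 share a carrier's symbol but encode a nuclear protein and a membrane adaptor.

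The embryos were wild type, produced by in vitro fertilization and used whole. RNA was taken at stages 8, 9 and 10.5 of Nieuwkoop and Faber, from mid blastula to early gastrula, and at stage 9 also from embryos raised in SB431542 from the 4-cell stage. SB431542 blocks the receptor kinases that pass on Nodal and activin signals, and a vehicle for the untreated embryos is not named in the labels. Peaks of H3K4me3, H3K27ac and Smad2/3 came from pools of 250 embryos at the same 3 stages, with H3K27ac also under inhibition. Every group held 1 library, so no difference below has a replicate check, and no p-value was made. The intervals of folds (95%, exact binomial) cover counting error only. Those of shares treat labels as independent draws and cover no spread between libraries.

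Solute carriers move small molecules down or against their gradients without splitting ATP, and their substrate follows the numbered family. The SLC25 family serves mitochondria, the SLC7 and SLC38 families carry amino acids, SLC16 carries lactate and pyruvate, SLC35 carries nucleotide sugars into the Golgi, and SLC30 and SLC39 move zinc out of and into the cytosol. A frog egg holds yolk and a store of maternal mRNA, and zygotic transcription starts at the mid-blastula transition. Roles given below for individual genes are those of the mammalian carriers of the same name. H3K4me3 marks promoters, H3K27ac marks active promoters and enhancers, and Smad2/3 carries the Nodal signal to DNA.

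The RNA assay sequences transcript ends next to the poly(A) tail, so 1 tag stands for 1 sequenced end and levels need no scaling for length. Levels are tag counts scaled to the gene-labelled tags of a library, in CPM. The libraries held 4656275 to 8030203 gene-labelled tags, and 3 tags, the limit that a count of 0 allows, were worth 0.374 to 0.644 CPM. The 4 maternal genes found of 8 listed summed to 307 CPM at stage 8, 262 at stage 9, 460 at stage 10.5 and 335 in the inhibited embryos. Of these sums vegt alone gave 113, 99.7, 294 and 54.55 CPM. The 5 early zygotic genes found of 12 listed summed to 7.84 CPM at stage 8, 27.5 at stage 9, 1778 at stage 10.5 and 421 in the inhibited stage 9 embryos, with sia1, mix1 and foxi4.2 at 0 tags at stage 8. The 10 gastrula germ layer genes found of 14 listed summed to 1811, 726, 2344 and 1008 CPM in the same order, with cer1 and eomes at 0 tags in untreated stage 9. The neural gene sox3 alone gave 1805, 718, 1319.8 and 993 CPM of these sums. The inhibited library held a larger sum of the early zygotic genes than the untreated one of the same stage, and the part of this in the differences between them was not tested. In whole embryos, fewer cells of a type and less RNA per cell cannot be told apart.

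Solute carrier tags made up 1.19% of the gene-labelled tags at stage 8, 0.995% at stage 9, 1.05% at stage 10.5 and 0.879% under inhibition. The median member stood at 25.5, 20.9, 32.4 and 31.1 CPM, against 55.9, 39.7, 47.8 and 42.1 CPM for all labels. At least 10 CPM was reached by 57, 48, 60 and 60 of the 83 members, and 68 reached it in some library. The highest value belonged to slc39a3, a zinc importer, with 3123 CPM at stage 8, 2245 at stage 9, 2764 at stage 10.5 and 1933 in the inhibited embryos. That label covers 177 regions over 2.92 Mb of scaffold 6, 2.16 Mb of scaffold 106 and 1.51 Mb of scaffold 79, and 49 other labels pair slc39a3 with another gene. Its value therefore cannot be read as the level of the gene, although it held 22.0 to 26.3% of the members' tags, and it is left out of the sums for metals below.

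**Figure D1:**
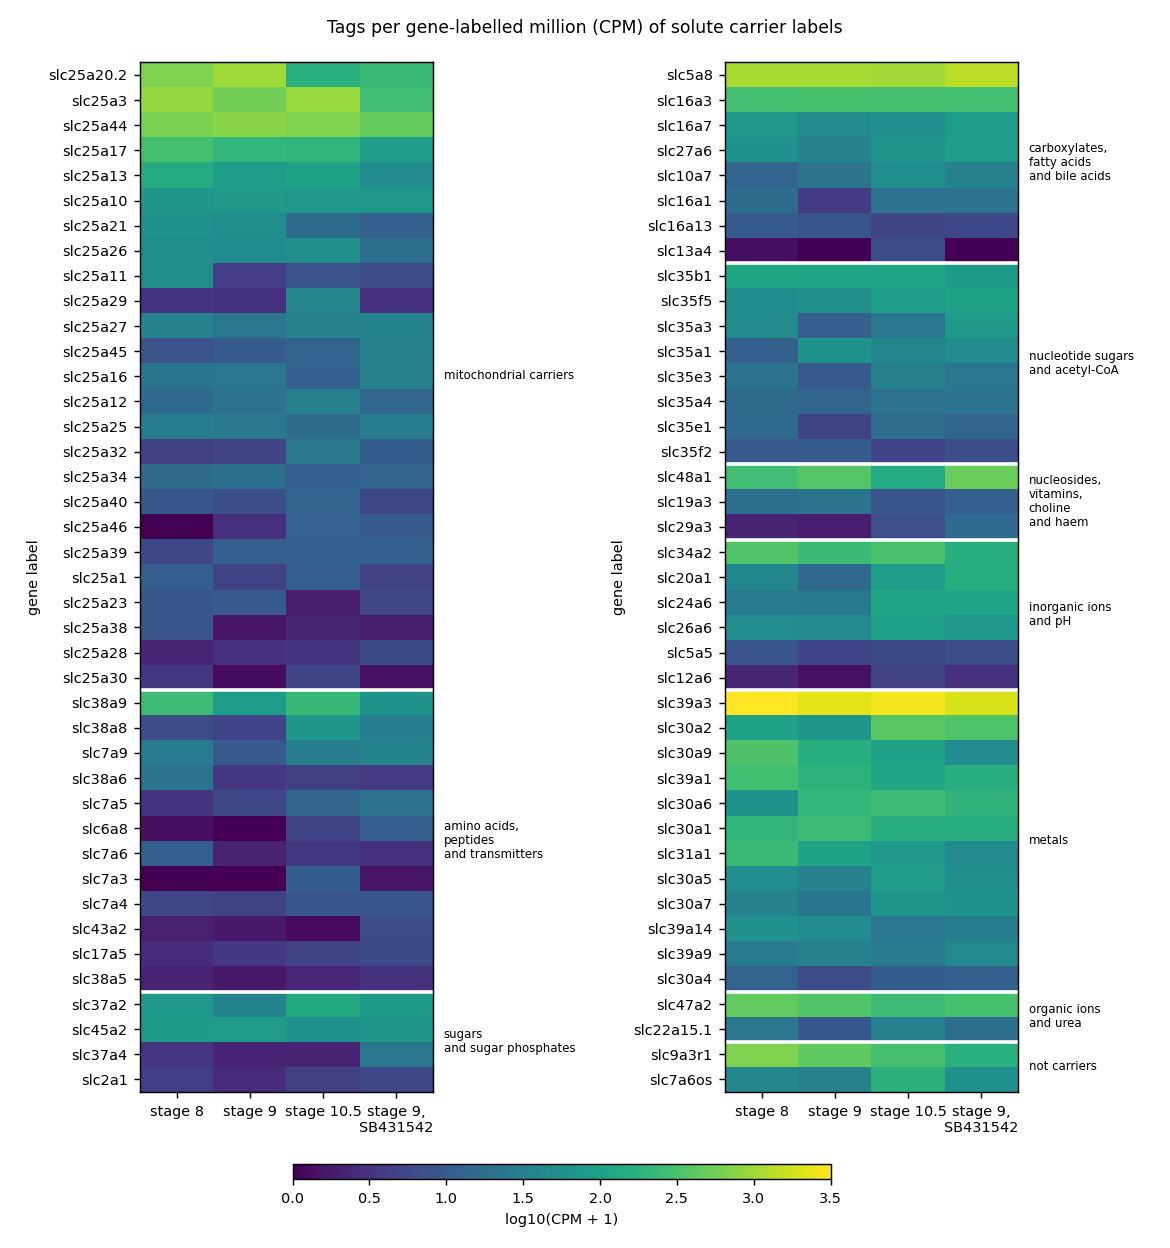
Tag levels of the solute carrier labels reported here in the 4 RNA libraries, 1 row per label and 1 column per library, grouped by substrate class and coloured by log10(CPM + 1). The slc39a3 and slc5a8 rows are the brightest in every column, with slc5a8 between 1039.8 and 1376 CPM, while slc25a20.2 was brightest at stage 9 and slc25a29 and slc7a3 were brightest at stage 10.5.

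Between stage 8 and stage 9, more members fell than rose, as did genes at large. A member counted as changed at 2-fold on log2(CPM + 1) if 1 of the paired libraries reached 10 CPM. Of 58 members at that level, 2 rose (7.35% of all labels did) and 14 fell (29.0% of all labels). The median log2 ratio was -0.42 for the members and -0.45 for all labels, a shift of the whole library that scaling by edgeR's trimmed mean of M-values (TMM) moved to 0.07 for all labels. Under that scaling, 5 members rose (17.4% of all labels) and 6 fell (14.6%), so the split between rises and falls in this pair rests on the scaling. The falls of slc22a15.1, slc25a1, slc30a9, slc31a1, slc35e3, slc38a9, slc7a6 and slc7a9 were lost with it. For slc7a6 the log2 ratio stayed past 2-fold, at -1.95, and the call was lost through the 10 CPM minimum alone. The members that rose were slc30a6 and slc35a1.

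From stage 9 to stage 10.5, 22 of 61 members rose (29.0% of all labels) and 5 fell (17.1%), with a median of 0.37 against 0.30 for all labels. TMM scaling gave 16 rises and 8 falls (22.2% and 22.2% of all labels), without the rises of slc10a7, slc25a1, slc26a6, slc30a5, slc35a3 and slc38a9. The slc25a1 rise kept a log2 ratio of 1.03 and was lost through the 10 CPM minimum alone. From stage 8 to stage 10.5, 13 of 65 rose (14.6%) and 12 fell (24.6%), with a median of 0.03 against -0.21, and TMM scaling gave 17 and 8 (19.0% and 18.3%), without the falls of slc19a3, slc35a3, slc7a6 and slc9a3r1. The slc7a6 fall kept a log2 ratio of -1.34 and was again lost through the 10 CPM minimum alone. Under inhibition, 18 of 60 were higher than in untreated stage 9 (20.7%) and 8 were lower (16.6%), with a median of 0.36 against 0.22, and TMM scaling ended the calls of slc22a15.1 and slc37a2. All these pairs except stage 10.5 over stage 8 share the untreated stage 9 library. In that library 7 of 68 members stood at least 2-fold below each of the other 3 libraries (6.23% of all labels), namely slc16a1, slc20a1, slc22a15.1, slc35a3, slc35e1, slc35e3 and slc7a9. None stood 2-fold above all others there (3.4%). At stage 8, slc25a46, slc30a6 and slc35a1 stood 2-fold below (1.67%) and slc25a11, slc30a9, slc31a1, slc38a6 and slc7a6 above the other libraries (8.08%). At stage 10.5 none stood below (4.91%) and slc25a29, slc25a32, slc38a8 and slc7a6os above (6.56%). In the inhibited library slc25a17, slc25a26, slc25a3 and slc30a9 stood below (4.11%) and slc25a45, slc29a3, slc37a4 and slc6a8 above (2.2%). Some values in the inhibited embryos are therefore also set beside stage 8 where the order changes.

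**Figure D2:**
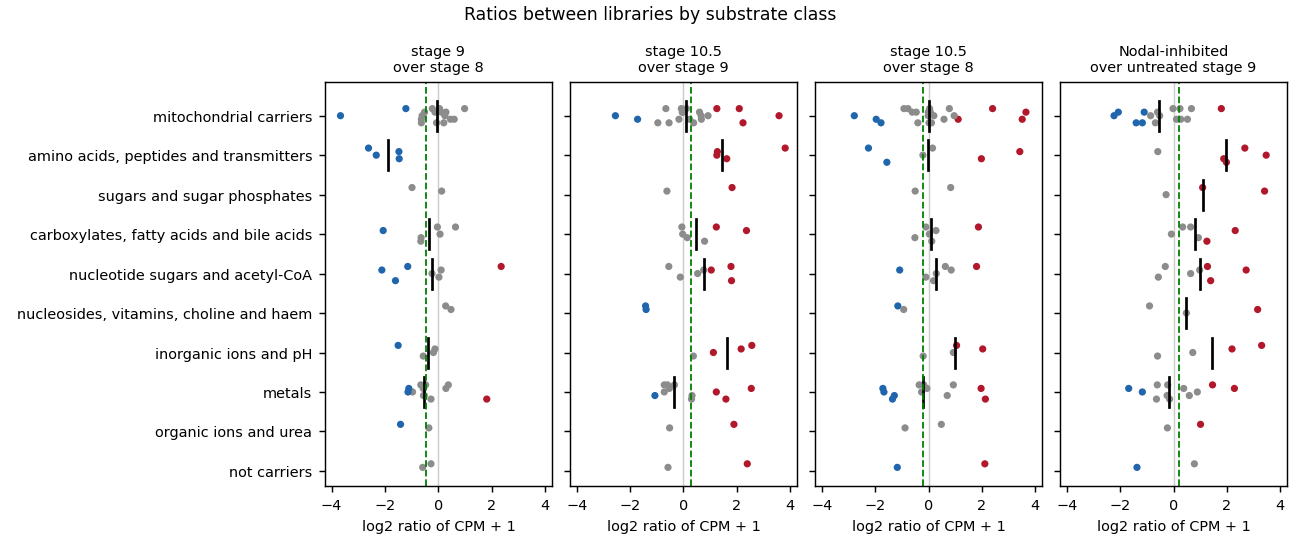
Log2 ratio of CPM + 1 in 4 pairs of libraries, 1 point per member that reached 10 CPM in the pair, in rows by substrate class. Red points are at least 2-fold higher, blue points at least 2-fold lower, black bars are medians of classes with 3 or more points, and the dashed green line is the median of all labels. The 4 amino acid carriers at 10 CPM lie left of that line at stage 9 over stage 8, and the 4 at stage 10.5 over stage 9 lie right of it. All but slc38a9 passed 10 CPM through the higher library alone, so the filter largely set their side. Mitochondrial carriers lie mostly left of the line under inhibition.

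The mitochondrial carriers, 26 members and the largest class, included the members that were lowest under inhibition relative to untreated stage 9, slc25a21 and slc25a20.2. Each of these falls lay mainly in 1 tag region of the label, for slc25a21 in 1 of 2. The summed level of the class was 3068 CPM at stage 8, 3017 at stage 9, 2492 at stage 10.5 and 1507 in the inhibited embryos. Of 16 at 10 CPM, 5 were lower (16.6% of all labels) and 1 was higher (20.7%) under inhibition, and the class median was -0.56 against 0.22. Against stage 8 instead, 15 of 64 of all members were lower (28.6% of all labels) and 14 higher (11.6%), and of the mitochondrial carriers 8 of 18 were lower and 2 higher under inhibition. The class median against stage 8 was -0.36, level with the -0.37 of all labels. At stage 9 over stage 8, none of 17 rose (7.35% of all labels) and 2 fell (29.0%), and the class median was -0.07 against -0.45.

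The carnitine and acylcarnitine carrier slc25a20.2, which brings fatty acids into mitochondria for oxidation, had 655 CPM at stage 8, 989 at stage 9, 168 at stage 10.5 and 235 in the inhibited embryos. It was high in both untreated blastula libraries and low in the other two. Stage 10.5 was 5.89-fold lower (5.56 to 6.25) than stage 9, and the inhibited library was 4.21-fold lower (3.95 to 4.50) than the untreated one. The fall under inhibition lay in the region that led in untreated stage 9, while the label's other regions together held more CPM under inhibition. The oxodicarboxylate carrier slc25a21 had a similar order, with 57.7 CPM at stage 8, 55.1 at stage 9, 16.1 at stage 10.5 and 11.0 in the inhibited embryos, and under inhibition it was 5.03-fold lower (3.75 to 6.88). Its region with most tags over the libraries, at 1591780 to 1591912 of scaffold 145, had a log2 ratio of only 0.06 in that pair. The phosphate carrier slc25a3, which supplies ATP synthase, had 895 CPM at stage 8, 573 at stage 9, 909.7 at stage 10.5 and 267 in the inhibited embryos. It was level between stages 8 and 10.5 and lowest under inhibition, where it was 2.14-fold lower (2.01 to 2.29) than in untreated stage 9. The S-adenosylmethionine carrier slc25a26 had 54.5 CPM at stage 8, 49.9 at stage 9, 54.0 at stage 10.5 and 18.3 in the inhibited embryos, and was 2.73-fold lower (2.15 to 3.51) in the inhibited embryos. The peroxisomal member slc25a17 also fell, being 2.27-fold lower (2.03 to 2.53).

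A few mitochondrial carriers were low in the untreated blastula libraries and higher at stage 10.5. The basic amino acid carrier slc25a29 was counted with 12 tags at stage 8, 15 at stage 9, 304 at stage 10.5 and 9 in the inhibited embryos. Only the gastrula library held it at more than 3 CPM, where it was 16.8-fold higher (10.03 to 30.4) than at stage 9. The folate carrier slc25a32 had 18 tags at stage 8, 28 at stage 9, 188 at stage 10.5 and 46 in the inhibited embryos, a rise of 5.57-fold (3.73 to 8.61) from stage 9. The outer membrane protein slc25a46, a regulator of mitochondrial shape, had 0 tags at stage 8, 13 at stage 9, 93 at stage 10.5 and 42 in the inhibited embryos. With 3 tags taken in place of 0, stage 10.5 was 19.2-fold higher than stage 8. That fold has no interval and leaves out the counting error of the 93 tags. In the opposite direction, the oxoglutarate and malate carrier slc25a11 had 53.9 CPM at stage 8, 3.30 at stage 9, 6.97 at stage 10.5 and 5.58 in the inhibited embryos. It was high in the stage 8 library alone and 16.3-fold lower (10.6 to 26.5) at stage 9. The branched-chain amino acid carrier slc25a44 stayed high, with 624 CPM at stage 8, 757 at stage 9, 672 at stage 10.5 and 473 in the inhibited embryos, and the dicarboxylate carrier slc25a10 was among the steadiest members.

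Among the amino acid carriers, slc38a6, slc7a6, slc38a9 and slc7a9 fell between stages 8 and 9, and slc38a8, slc7a9, slc38a9 and slc7a5 rose from stage 9 to 10.5. The 12 labels of the class summed to 325 CPM at stage 8, 118 at stage 9, 361 at stage 10.5 and 182 under inhibition. These were all 4 members at 10 CPM in each pair (29.0% of all labels fell in the first and 29.0% rose in the second), but all except slc38a9 reached 10 CPM through the higher library alone, so the filter left little else to count. Under TMM scaling 1 of 3 fell and 3 of 4 rose, with slc38a9 (log2 ratio -0.98) and slc7a9 just within 2-fold at stage 9 over stage 8. In that pair slc7a6 kept a log2 ratio of -1.95 but no longer reached 10 CPM. In the inhibited embryos, 4 of 5 were higher than in the untreated ones (20.7%), while 3 of 7 were higher and 3 lower than at stage 8 (11.6% and 28.6%). The 4 reached 10 CPM through the inhibited library alone, so here too the filter left little else to count. The highest member in every library was slc38a9, the lysosomal arginine sensor of the mTORC1 pathway, with 252 CPM at stage 8, 89.3 at stage 9, 217 at stage 10.5 and 59.1 in the inhibited embryos. It was high at stages 8 and 10.5 and low in both stage 9 libraries.

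The glutamine carrier slc38a8 was counted with 28 tags at stage 8, 27 at stage 9, 562 at stage 10.5 and 145 in the inhibited embryos. It rose 17.3-fold (11.7 to 26.4) by stage 10.5 and was 7.68-fold higher (5.07 to 12.1) under inhibition. The cationic amino acid carrier slc7a3 had 0 tags at stage 8, 0 at stage 9, 79 at stage 10.5 and 3 in the inhibited embryos. It was at 0 in both untreated blastula libraries, which allows up to 0.603 and 0.450 CPM, and the gastrula level of 9.84 CPM stayed just under the 10 CPM needed for a call. The creatine carrier slc6a8 had 2 tags at stage 8, 0 at stage 9, 34 at stage 10.5 and 47 in the inhibited embryos. With 3 tags taken in place of 0, the inhibited library was 22.4-fold higher than the untreated one. That fold has no interval and leaves out the counting error of the 47 tags. The light chain slc7a5, which carries large neutral amino acids, had 2.41 CPM at stage 8, 4.66 at stage 9, 12.5 at stage 10.5 and 19.8 in the inhibited embryos. Its level followed the order of the stages and was highest under inhibition, 4.24-fold higher (2.80 to 6.60) than in untreated stage 9. The cystine carrier chain slc7a9 had 25.5 CPM at stage 8, 8.56 at stage 9, 28.4 at stage 10.5 and 36.7 in the inhibited embryos and was low in untreated stage 9 only. The carriers slc38a6, with 20.9 CPM at stage 8, 2.55 at stage 9, 3.61 at stage 10.5 and 2.79 in the inhibited embryos, and slc7a6, with 10.1 CPM at stage 8, 1.20 at stage 9, 2.74 at stage 10.5 and 1.93 in the inhibited embryos, were high at stage 8 alone.

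Carriers of carboxylates included slc16a3 and slc5a8, whose summed label levels hardly varied over the libraries. The sodium-coupled monocarboxylate carrier slc5a8 was the second highest label, with 1117 CPM at stage 8, 1086 at stage 9, 1039.8 at stage 10.5 and 1376 in the inhibited embryos. The lactate exporter slc16a3 had 286 CPM at stage 8, 298 at stage 9, 291 at stage 10.5 and 282 in the inhibited embryos, the smallest range of all members at 10 CPM. Its 4 tag regions did not move together. The region at 1042651 to 1042964 of scaffold 282 had 28.8, 69.2, 7.97 and 16.5 CPM in the same order. The region at 1047847 to 1048153 had 85.5, 38.1, 12.6 and 23.8 CPM, and that at 1049815 to 1050683 had 155, 172, 263 and 217 CPM. Over the 4 libraries, 17 of 68 members varied by less than 2-fold (21.7% of all labels) and 25 by at least 4-fold (30.9%). The related lactate carrier slc16a1 was not steady, with 16.5 CPM at stage 8, 3.15 at stage 9, 20.3 at stage 10.5 and 19.5 in the inhibited embryos. It was low in untreated stage 9 only, 5.23-fold lower (3.21 to 8.89) than at stage 8 and 6.20-fold higher (3.82 to 10.5) in the inhibited embryos. The fatty acid carrier slc27a6 was also higher under inhibition, with 57.7 CPM at stage 8, 36.0 at stage 9, 62.9 at stage 10.5 and 87.0 in the inhibited embryos. Of 6 at 10 CPM, 2 rose and none fell at stage 10.5 over stage 9, near the 29.0% of all labels that rose, and the counts were the same under inhibition (20.7% higher and 16.6% lower).

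The 4 sugar carriers comprised a low pair and a pair of higher members. The glucose carrier slc2a1 stayed between 1.80 and 4.72 CPM. The melanosomal carrier slc45a2 had 79.2 CPM at stage 8, 85.9 at stage 9, 55.5 at stage 10.5 and 70.4 in the inhibited embryos and stayed within 2-fold. The glucose 6-phosphate exchanger slc37a2 led the class with 74.0 CPM at stage 8, 36.8 at stage 9, 132 at stage 10.5 and 79.5 in the inhibited embryos, a rise of 3.60-fold (3.13 to 4.16) from stage 9 to 10.5. The glucose 6-phosphate carrier of the endoplasmic reticulum, slc37a4, had 13 tags at stage 8, 8 at stage 9, 10 at stage 10.5 and 104 in the inhibited embryos. It stood out in the inhibited library, 18.6-fold higher (9.09 to 44.2) than in untreated stage 9, and 50 and 51 of the 104 tags lay in a pair of regions on scaffold 1648, apart from the gene's peaks on scaffold 39.

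Nucleotide sugar carriers differed among themselves at stage 9, where slc35a1 was at its highest and slc35a3 at its lowest. The CMP-sialic acid carrier slc35a1 had 10.9 CPM at stage 8, 59.5 at stage 9, 40.2 at stage 10.5 and 47.9 in the inhibited embryos and rose 5.48-fold (4.11 to 7.42) between stages 8 and 9. It was low at stage 8 and within 2-fold in the other 3 libraries. The UDP-N-acetylglucosamine carrier slc35a3 had 48.3 CPM at stage 8, 10.4 at stage 9, 22.3 at stage 10.5 and 74.1 in the inhibited embryos, being 4.66-fold lower (3.55 to 6.18) at stage 9 than at stage 8 and 7.15-fold higher (5.51 to 9.40) under inhibition. As a label, the endoplasmic reticulum member slc35b1 was steady, with 117 CPM at stage 8, 118 at stage 9, 109 at stage 10.5 and 79.5 in the inhibited embryos. The region of slc35b1 with most tags differed between libraries. Of 7 at 10 CPM, 3 were higher (29.0% of all labels) and none lower (17.1%) at stage 10.5 over stage 9, and the counts were the same under inhibition (20.7% and 16.6%).

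Of 4 carriers of inorganic ions at 10 CPM, slc20a1, slc24a6 and slc26a6 rose from stage 9 to 10.5 (29.0% of all labels), and slc20a1 and slc24a6 were higher under inhibition (20.7%). The sodium and phosphate cotransporter slc20a1 had 42.6 CPM at stage 8, 14.3 at stage 9, 89.0 at stage 10.5 and 149.7 in the inhibited embryos. As a label it was lowest in untreated stage 9 and highest under inhibition, and rose 6.24-fold (5.03 to 7.82) by stage 10.5. The inhibited library was 10.5-fold higher (8.46 to 13.1) than the untreated one and 3.51-fold higher (3.01 to 4.11) than stage 8. Its region with most tags over the libraries, at 2093296 to 2093673 of scaffold 30, was lowest at stage 8 instead. That region had 6.23 CPM at stage 8, 8.26 at stage 9, 75.3 at stage 10.5 and 106 in the inhibited embryos. The mitochondrial sodium and calcium exchanger slc24a6, now named slc8b1, had 27.5 CPM at stage 8, 25.1 at stage 9, 115 at stage 10.5 and 118 in the inhibited embryos, level in both untreated blastula libraries and 4.60-fold higher (3.90 to 5.46) in the gastrula. The anion exchanger slc26a6 rose 2.21-fold (1.93 to 2.53) from stage 9 to 10.5, a call lost under TMM scaling. The epithelial phosphate cotransporter slc34a2 led the class, with 358 CPM at stage 8, 241 at stage 9, 311 at stage 10.5 and 158 in the inhibited embryos, with a log2 ratio of -0.60 under inhibition, and passed 2-fold only between stage 8 and the inhibited embryos, where it was lower.

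Zinc exporters and other metal carriers moved in both directions. Without slc39a3 they summed to 1383 CPM at stage 8, 1120 at stage 9, 1317 at stage 10.5 and 1146 under inhibition. The vesicular zinc exporter slc30a2 had 103 CPM at stage 8, 69.4 at stage 9, 407 at stage 10.5 and 342 in the inhibited embryos. The gastrula and the inhibited embryos both stood above the untreated blastula libraries, 5.87-fold higher (5.33 to 6.49) and 4.93-fold higher (4.44 to 5.48) than stage 9. The Golgi zinc exporter slc30a6 had 58.9 CPM at stage 8, 209 at stage 9, 261 at stage 10.5 and 189 in the inhibited embryos, a rise of 3.55-fold (3.13 to 4.04) between stages 8 and 9. Its partner slc30a5 and the related slc30a7 rose later, 2.38-fold (2.05 to 2.78) and 3.09-fold (2.58 to 3.73) from stage 9 to 10.5, and the call of slc30a5 was lost under TMM scaling.

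Among the other metal carriers, slc30a9 and slc31a1 fell between stages 8 and 9, and were lower under inhibition than in untreated stage 9. The falls were lost under TMM scaling, with log2 ratios of -0.60 and -0.63. The mitochondrial zinc exporter slc30a9 had 337 CPM at stage 8, 156 at stage 9, 102 at stage 10.5 and 48.1 in the inhibited embryos, and the copper importer slc31a1 had 234 CPM at stage 8, 106 at stage 9, 73.1 at stage 10.5 and 46.6 in the inhibited embryos. Both were highest at stage 8 and lowest in the inhibited embryos, where slc30a9 was 3.24-fold lower (2.80 to 3.76) and slc31a1 2.28-fold lower (1.95 to 2.66) than in untreated stage 9. By stage 10.5 slc39a1 and slc39a14, importers of zinc and, for slc39a14, of iron and manganese, were 2.44-fold lower (2.24 to 2.66) and 2.62-fold lower (2.17 to 3.17) than at stage 8. The slc30a9 and slc39a1 labels each sum tag regions on 2 scaffolds, so their folds are those of the label. The plasma membrane exporter slc30a1 had 193 CPM at stage 8, 249.6 at stage 9, 151 at stage 10.5 and 163 in the inhibited embryos and passed 2-fold in none of the pairs.

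The remaining classes are small. The lysosomal haem carrier slc48a1 had 263 CPM at stage 8, 363 at stage 9, 137 at stage 10.5 and 506 in the inhibited embryos, with the gastrula 2.64-fold lower (2.46 to 2.84) than stage 9. The thiamine carrier slc19a3 fell in the same pair, with 17.5 CPM at stage 8, 21.3 at stage 9, 7.35 at stage 10.5 and 11.0 in the inhibited embryos. The lysosomal nucleoside carrier slc29a3 had 6 tags at stage 8, 6 at stage 9, 49 at stage 10.5 and 74 in the inhibited embryos, and the inhibited library was 17.6-fold higher (7.73 to 49.6) than the untreated one. The drug and toxin exporter slc47a2 had 458 CPM at stage 8, 357 at stage 9, 249 at stage 10.5 and 305 in the inhibited embryos and passed 2-fold in none of the pairs. Of the members that are not carriers, the adaptor slc9a3r1 had 661 CPM at stage 8, 438 at stage 9, 292 at stage 10.5 and 168 in the inhibited embryos and was 2.60-fold lower (2.40 to 2.82) under inhibition. The label slc7a6os, with 40.6 CPM at stage 8, 33.3 at stage 9, 179 at stage 10.5 and 57.8 in the inhibited embryos, was 5.37-fold higher (4.66 to 6.22) at stage 10.5 than at stage 9. It lies on the same scaffold as slc7a6, and since strand was ignored in the annotation, tags of the pair cannot be told apart where the genes overlap.

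Among members with 50 or more tags in each library and several regions, the region with most tags differed between libraries in 7 of 43. That is 16.3% of them, against 31.0% of all labels. The 7 were slc20a1, slc25a16, slc25a20.2, slc25a21, slc30a6, slc30a7 and slc35b1. Whether the transcript end differed was not tested. In slc20a1, the region at 2083594 to 2083687 of scaffold 30 held 148 tags at stage 8, 24 at stage 9, 3 at stage 10.5 and 3 with the inhibitor. The region at 2093296 to 2093673 held 31, 55, 605 and 493. The first led at stage 8 and the second in the other libraries, and at stage 9 over stage 8 the second had a log2 ratio of 0.36 while the label fell. In slc25a21, the region at 1591489 to 1591719 of scaffold 145 held 49, 300, 12 and 2 tags, and its neighbour at 1591780 to 1591912 held 238, 67, 117 and 49. The label fell to stage 10.5 while its second region had a log2 ratio of 0.49.

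In slc30a6, the region at 1516682 to 1517195 of scaffold 74 held 73, 652, 100 and 104 tags, a peak at untreated stage 9. The next region, at 1517374 to 1517814, held 126, 412, 1618 and 644 tags and led in the other libraries. The leading region of slc25a20.2, at 1583489 to 1584038 of scaffold 44, held 70.2% of the label's tags at stage 8, 94.4% at stage 9, 72.6% at stage 10.5 and 30.6% under inhibition. All positions are on the xenTro2 assembly. Regions are given as called by the authors, and neighbouring regions can belong to the same transcript.

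**Figure D3:**
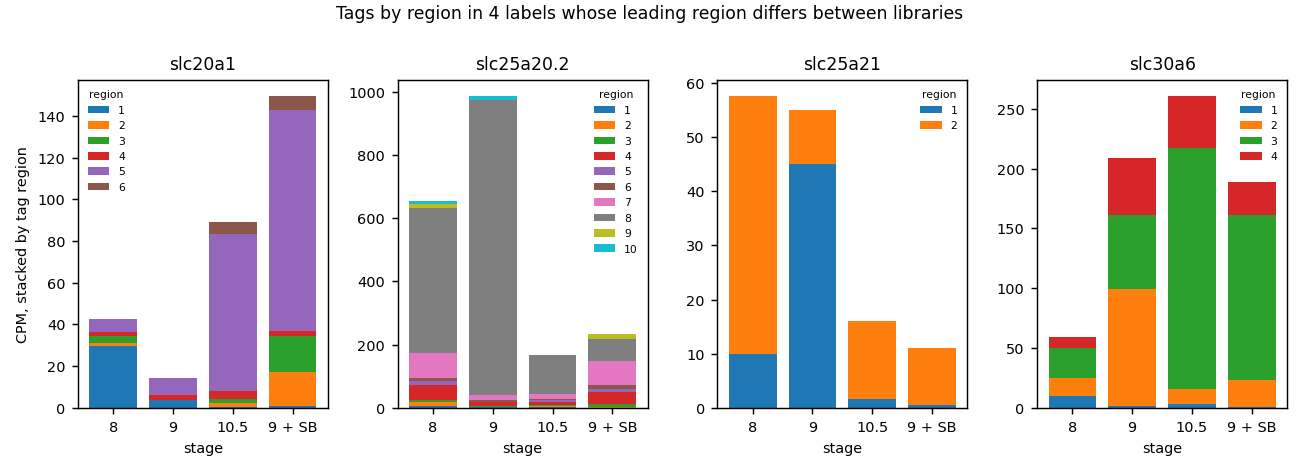
Levels of slc20a1, slc25a20.2, slc25a21 and slc30a6 in the 4 RNA libraries (x axis, stage, with SB for SB431542), stacked by tag region numbered along the scaffold (y axis, CPM). Region 1 of slc20a1 leads at stage 8 and region 5 in the other libraries, and region 1 of slc25a21 and region 2 of slc30a6 lead in untreated stage 9 only.

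Ion pumps and carrier partners, which set the gradients that many carriers use, were followed as a list of 45 genes of which 24 are in the table. At stage 9 over stage 8, 1 of 20 rose and 6 fell, near the 7.35% and 29.0% of all labels. The largest falls were those of atp6ap2, 7.82-fold (5.78 to 10.8), and atp6v1e1, 7.45-fold (5.83 to 9.64). At stage 10.5 over stage 9, 9 of 20 rose (29.0%) and 4 fell (17.1%). Under inhibition, 5 of 19 were higher and 4 lower (20.7% and 16.6%), with the largest increase in atp6v0b, 3.72-fold (2.80 to 5.00). The sodium pump subunit atp1b2 had 0, 0.450, 257.6 and 4.72 CPM in library order, and the proton and potassium pump atp12a had 0, 0, 111.6 and 2.15 CPM, so both were high in the gastrula library alone. Basigin (bsg), the chaperone of lactate carriers, had 58.5, 30.2, 236 and 54.8 CPM. It rose by 2.93 on the log2 scale from stage 9 to 10.5. Of the lactate carriers in that pair, the slc16a3 label stayed within 2-fold and slc16a1 rose 6.44-fold (4.07 to 10.7). The vacuolar proton pump subunit atp6v1c1 had 63.3, 199, 35.0 and 27.3 CPM, with its highest level in untreated stage 9.

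Peaks of H3K4me3 within 50 kb of the transcription start site (TSS) named 9 members at stage 8, 46 at stage 9 and 70 at stage 10.5. These are 10.8% (5.08 to 19.6%), 55.4% (44.1 to 66.3%) and 84.3% (74.7 to 91.4%) of the 83, against 14.9%, 57.5% and 82.1% of all labels. H3K27ac peaks named 31, 45 and 71 members, or 37.3%, 54.2% and 85.5%, against 42.9%, 54.8% and 77.6%. The lists themselves grew from 2010 to 14549 peaks for H3K4me3 and from 8078 to 23275 for H3K27ac, so the counts cannot be separated from the size of the lists. All member intervals held the value of all labels. They treat the 83 labels as independent draws and cover no spread between libraries or peak calls, so this was not a test. H3K27me3, the Polycomb mark, named 0 members at stages 8 and 9 (0.11% and 0.165% of all labels) and at stage 10.5 only slc43a2, an amino acid carrier (0.494%).

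**Figure D4:**
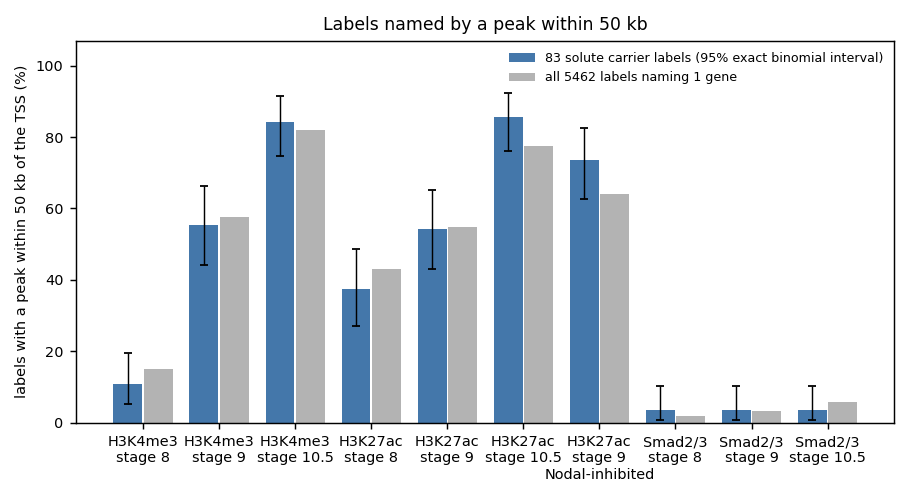
Share of labels (y axis, percent) with a peak of H3K4me3, H3K27ac or Smad2/3 within 50 kb of the TSS in each peak list (x axis), for the 83 solute carrier labels (blue, with 95% exact binomial intervals) and all 5462 labels naming 1 gene (grey). Blue and grey bars rise together from stage 8 to stage 10.5 for both histone marks, and the Smad2/3 share of members is 3.61% at each stage.

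The 9 members with H3K4me3 at stage 8 were slc16a13, slc20a1, slc22a15.1, slc25a11, slc25a23, slc25a25, slc30a1, slc35e1 and slc7a3. All but slc25a23 were also named at stage 9 (90.4% of all labels), and 45 of 46 stage 9 members were named at stage 10.5 (98.1%). Another 37 members, 44.6%, were named at stages 9 and 10.5 (43.0% of all labels), and 24, 28.9%, at stage 10.5 only (24.7%). The stage 8 peak of slc20a1 lay 6.38 kb upstream of the TSS. At stage 9 the named members had a median of 17.6 CPM and the others 21.3 CPM, while among all labels the medians were 49.3 and 28.4 CPM. At stage 10.5 the order of the members was that of all labels, with 34.1 CPM in named and 23.4 in other members, against 50.4 and 35.5 CPM. The 24 members named only at stage 10.5 had medians of 45.9 CPM at stage 8 and 34.2 CPM at stage 9. The 1349 of all labels with this pattern had 38.8 and 27.6 CPM. In both, tags were counted before a peak was called.

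At slc7a3 a peak was called before tags were counted. It had 0 tags at stages 8 and 9, yet a H3K4me3 peak lay 417 bp from its TSS on scaffold 117 at stage 8 (425560 to 426298), with H3K27ac over the promoter at the same stage, and its 79 tags came at stage 10.5. At slc25a29 the H3K4me3 peak 2284 bp inside the gene was called at stage 9, again before the rise in tags. A stage 9 peak was as common without a rise. It named 59.1% of the 22 members that rose to stage 10.5 and 55.9% of the 34 within 2-fold. Of all labels it named 60.6% and 59.7%. At slc38a8 the rise in tags over untreated stage 9 and the H3K4me3 peak, 1113 bp from the TSS, were both seen at stage 10.5. Its label already held 28 and 27 tags at stages 8 and 9, and H3K27ac named it at stage 8. Of the mitochondrial carriers, 3 of 26 were named by H3K4me3 at stage 8, 17 at stage 9 and 22 at stage 10.5. Of the metal carriers, 1, 8 and 12 of 12 were, and of the amino acid carriers 1, 5 and 10 of 12.

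Under Nodal inhibition, H3K27ac peaks named 61 of 83 members, 73.5% (62.7 to 82.6%), against 64.0% of all labels. Of the 45 members named in untreated stage 9, 39 were also named under inhibition, or 86.7% against 80.2% of all labels. The 6 that were not named included slc16a13, slc25a16, slc25a20.2, slc2a1 and slc39a1. Among them slc25a20.2 was also lower in RNA, and its untreated peak lay 22538 bp from the TSS. H3K4me1, a mark of enhancers, named 43, 72 and 76 members at stages 8, 9 and 10.5 (47.0%, 83.6% and 87.0% of all labels) and 65 under inhibition (74.4%), and 61 of the 72 were kept (86.8% of all labels). Newly named by H3K27ac were 22 members, 36.1% of those named under inhibition against 31.3% of all labels. Of these, slc37a4, slc38a8, slc35e3, slc37a2 and slc27a6 had higher RNA, slc9a3r1 had lower RNA, and the others were within 2-fold or under 10 CPM. Of all labels at 10 CPM, 20.7% were higher and 16.6% lower. The inhibited tags of slc37a4 lay mostly on another scaffold than its peaks, and the call of slc37a2 was lost under TMM scaling. Of the 18 members with higher RNA, H3K27ac named 8 in untreated and 13 in inhibited embryos, or 44.4% and 72.2%, against 56.1% and 64.6% of all labels with higher RNA. Of the 34 members within 2-fold, it named 15 and 24, or 44.1% and 70.6%, against 55.5% and 62.8% of all labels within 2-fold. The increase was therefore not particular to members with higher RNA. Of the 8 with lower RNA, it named 6 in each, or 75.0%, while of all 738 labels with lower RNA it named 384 and 460. The inhibited histone libraries differed from the untreated ones in aligner and adapters as well as in treatment, and these cannot be told apart. Their lists held 16105 H3K27ac and 17162 H3K4me1 peaks, against 11314 and 25975 in untreated stage 9. The counts of members gained and lost cannot be separated from these sizes.

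Smad2/3 peaks within 50 kb named 3 members at each stage, 3.61% (0.752 to 10.2%), against 1.72%, 3.2% and 5.66% of all labels, and none was named at more than 1 stage. The scores below are the authors' peak scores and rank peaks within 1 list only. At stage 8 they were slc16a3 (scaffold 282, 1047040 to 1047493, intron, score 22.9), slc35a1 (scaffold 76, 1051977 to 1052216, intron, score 9.45) and slc35e1 (scaffold 94, 12885 to 13125, score 11.7). The slc35e1 peak lay 9.31 kb upstream of the TSS on a scaffold without tags of that label, and overlapped a H3K4me3 peak of stage 8. The peaks of slc16a3 and slc35a1 overlapped no called H3K4me3, H3K27ac or H3K4me1 peak. At stage 9 they were slc16a1 (scaffold 18, 2661362 to 2661614, intron, score 12.1), slc30a1 (scaffold 108, 1036129 to 1036443, intergenic, score 7.32) and slc35f5 (scaffold 2963, 226 to 591, promoter, score 7.23). None of the stage 9 peaks overlapped a called H3K4me3, H3K27ac or H3K4me1 peak.

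At stage 10.5 all 3 Smad2/3 peaks overlapped H3K27ac and H3K4me1 of the same stage. They were slc20a1 (scaffold 30, 2070474 to 2070769, score 17.5, 9.61 kb upstream), slc25a30 (scaffold 689, 490581 to 490867, intron, score 14.1, 925 bp inside) and slc5a8 (scaffold 243, 534169 to 534456, promoter, score 13.2). The share of all Smad2/3 peaks that overlap these marks is not given here. The lists held 11314 H3K27ac and 25975 H3K4me1 peaks at stage 9, and 23275 and 35700 at stage 10.5. The overlaps at these stages can therefore not be compared. The tags of slc5a8 came from scaffold 38, apart from a region on scaffold 243 with 0, 0, 44 and 0 tags, so its Smad2/3 peak lies away from most of its tags. At slc20a1 the H3K27ac peak of stage 10.5 ran from 2067721 to 2081564 with a score of 68 and took in both the Smad2/3 peak and the promoter. At stage 9 H3K27ac was called there in separate pieces, with the larger at the promoter (2078761 to 2081395). The carrier slc25a30 had 13 tags at stage 8, 2 at stage 9, 35 at stage 10.5 and 2 in the inhibited embryos.

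Of the 9 members with a Smad2/3 peak, slc16a1, slc20a1 and slc35e1 were higher under inhibition at stage 9 (20.7% of all labels), 5 were within 2-fold, and slc25a30 was under 10 CPM. The rises of slc16a1 and slc35e1 were not seen against stage 8, where their log2 ratios were 0.23 and -0.22, while slc20a1 was still higher, with 1.79. RNA of inhibited embryos was analysed here at stage 9 only.

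**Figure D5:**
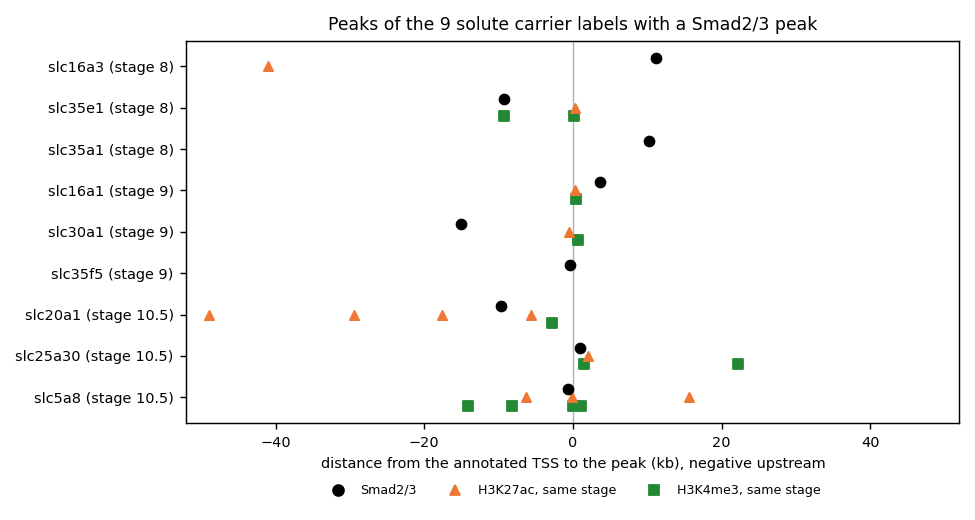
Distance from the annotated TSS (x axis, kb, negative upstream) of the Smad2/3 peaks (black) of the 9 named members, with the H3K27ac (orange) and H3K4me3 (green) peaks of the same stage, 1 row per member and stage. The stage 10.5 peaks of slc25a30 and slc5a8 and the stage 9 peak of slc35f5 lie within 1 kb of a TSS, and the slc20a1 peak lies 9.61 kb upstream among H3K27ac peaks. Peaks of slc5a8 come from 2 scaffolds, each measured from its own TSS.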

How the data were processed

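RNA was measured by 3' end sequencing in 4 libraries and chromatin by ChIP-seq peak lists, 1 library per group. The tag counts per region are those deposited by the authors; per the file headers the regions were annotated without regard to strand on xenTro2, and 50.2% of the 46039 regions are written end first. The peak score, position and distance to the transcription start site were also deposited by the authors. Per the submitters' processing notes, reads were aligned with BWA or Bowtie, and these cannot be told apart from treatment for the inhibited histone libraries. Counts were summed per label and divided by gene-labelled tags, and regions without a gene stayed out. Ratios are log2(CPM + 1), called at 2-fold where 1 of the pair reached 10 CPM, and fold intervals are exact (95%). With 1 library per group edgeR (4.0.16) gave TMM factors and DESeq2 (1.42.0) size factors, as scaling alternatives only. The scripts were tested on simulated data. In the table, 4 columns matched no listed sample and were not used. Named genes are the 5 largest rises and falls per comparison, the 10 highest levels and the top of each class. Members with a Smad2/3 peak or a stage 8 H3K4me3 peak are also named, as are the 2 largest pump changes per comparison. Other members and pump list genes are given as examples chosen after their values were seen. Members and lists were chosen with earlier results of these data known, and slc5a8 was moved to the carboxylate class after its values were seen. Alternatives were other scalings, pseudocounts, minimum levels, windows and score limits. Computation used Python 3.11.15, pandas 2.3.3, scipy 1.17.1, matplotlib 3.10.9 and R 4.3.3. A member is counted throughout but left out of the plot of levels and not reported here.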

Additional observations from a re-analysis of the deposited data

How the results depend on the processing

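No paired analysis was possible because each group held 1 library, and no library could be left out. For stage 9 over stage 8, TMM and median-of-ratios scaling each gave 5 members higher and 6 lower, in place of 2 and 14. For stage 10.5 over stage 9 they gave 8 and 10 lower, in place of 5. With stage 8 as reference, 15 members were lower under inhibition, in place of 8. Within 1 kb of the start site, H3K4me3 named 45 members at stage 10.5, or 54.2% against 61.9% of all labels. H3K27ac named 15, 23, 38 and 32 at stages 8, 9, 10.5 and under inhibition, or 18.1%, 27.7%, 45.8% and 38.6%. Of all labels it named 24.6%, 31.7%, 47.1% and 32.3%. At stage 10.5 both marks thus named a smaller share of members than of all labels, the reverse of the order within 50 kb. With the top 50% of scores, H3K4me3 named 5 and 28 at stages 8 and 9, and H3K27ac 17 and 26. Smad2/3 at stage 8 named 1 member within 10 kb, 0 within 1 kb (0.0366% of all labels) and 1 in the top 50%. At stage 9 it named 1 within 1 kb (0.22% of all labels) and 1 in the top 50%, and at stage 10.5 it named 0 in the top 50%. The shares of all labels in the top 50% of scores and within 10 kb are not given here, so those counts cannot be compared. With the region of most tags only, the log2 ratio turned to 0.36 for slc20a1 (stage 9 over stage 8), to 0.49 for slc25a21 at stage 10.5 over stage 9, and to 0.06 for slc25a21 under inhibition. With stage 8 as reference, slc22a15.1 and slc35e1 turned to -0.41 and -0.22 under inhibition. The cause was not tested. All values rest on 1 library per group, and the size of the peak lists limits the chromatin counts.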

Other observations

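Carrier genes outside the 83 labels were also named by Smad2/3 peaks. At stage 10.5, slc38a3, a glutamine carrier, had a peak on scaffold 159 (1651105 to 1651582) with a score of 55.9, which ranked 51 of 1024 in its list, 5.86 kb upstream of the TSS. The peaks of slc9a8 (score 13.2) and slc29a2 (score 11.5) lay 13383 and 8710 bp downstream of the TSS, and all 3 overlapped H3K27ac and H3K4me1 of the same stage. For these overlaps, too, the share of all Smad2/3 peaks is not given. At stage 9, slc41a2, a magnesium carrier, had a score of 14.3, ranked 97 of 865, 2519 bp from the TSS, and overlapped none of the marks. The RNA of these genes was not analysed here.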
